A study of Mus musculus with 4 samples.

Results

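Nrf2 binding was followed at 4 mouse glutathione transferase genes, the alpha-class genes Gsta3 and Gsta4 and the pi-class genes Gstp1 and Gstp2, chosen by gene name among the 1940 genes of a deposited table of ChIP-seq intervals. ChIP-seq sequences the DNA that an antibody pulls down with its target. The 4 genes stand for 3 loci of 1460, because Gstp1 and Gstp2 are listed with the same intervals. The libraries were made from esophagus of C57BL/6 mice with an antibody against Nrf2. They came from Keap1KO mice, which lack the adaptor that targets Nrf2 for degradation, from Nrf2KO mice, which lack the antibody's target, and from wild-type mice, with 1 library for each genotype. The sources used here do not give how the alleles were made, the age of the mice or the number of animals behind a library. A pooled input library is not analysed here. With no replicates there is no error on any height, no test between genotypes was possible, and every comparison is of single libraries. Read depth is unknown, so a difference in depth between libraries cannot be told apart from a difference in binding.

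Glutathione transferases join reduced glutathione to electrophiles, which makes these more soluble and marks them for export. The alpha-class enzyme Gsta3 is known for its activity on the epoxide of aflatoxin in mice, and Gsta4 for conjugating hydroxynonenal, a product of lipid peroxidation. The pi-class enzyme Gstp1 is widely expressed in epithelia. Gstp2 is its close neighbour in the mouse genome and encodes a very similar protein with little catalytic activity. Nrf2 binds DNA as a partner of small Maf proteins at the antioxidant response element, whose core is taken here as TGACNNNGC. Glutathione transferase genes are among the classical targets of Nrf2.

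The intervals of the alpha-class genes lay just upstream of gene starts. Gsta3 (GeneID 14859, chromosome 1, plus strand, 21240589 to 21265559) had 1 interval at position 21240416, 173 bp upstream of its start. Gsta4 (GeneID 14860, chromosome 9, plus strand, 78191966 to 78209349) had 1 interval at position 78191808, 158 bp upstream. Both were called in Keap1KO and not in wild-type or Nrf2KO. Of all 1460 loci, 1448 were called in Keap1KO and 3.77% in wild-type, and 0 genes were called in Nrf2KO. The next listed interval lay 4551829 bp away from that of Gsta3, at Ly96, and 82976 bp away from that of Gsta4, at Fbxo9 and Ick. The alpha-class genes Gsta1 and Gsta2, on the same chromosome as Gsta4, have no row in the table used here. Their starts lay 38861 and 155384 bp from the Gsta4 interval, and 0 listed intervals fell between the Gsta4 start and the Gsta2 start.

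The pi-class genes lie head to tail on the minus strand of chromosome 19, and both are listed with the same 3 intervals. Gstp1 (GeneID 14870) runs from 4035411 to 4037912 and Gstp2 (GeneID 14869) from 4040288 to 4042221. The first interval, called in Keap1KO, was at position 4037920, 8 bp upstream of the Gstp1 start and 4301 bp downstream of the Gstp2 start. The second, also called in Keap1KO, was at 4046112, 3891 bp upstream of the Gstp2 start and 8200 bp upstream of that of Gstp1. The third was called in wild-type at 4046144, 32 bp from the second, and the table merges these last 2 into 1 region. No listed interval lay at the start of Gstp2. The start of Gstp3, a further pi-class gene with no row in the table used here, was 13493 bp upstream of the second interval. Positions are in mm10, and the coordinates of Gsta4, Gstp1 and Gstp2 are those of the RefSeq table of GRCm38.p6, while Gsta3 starts 24 bp later than there.

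**Figure D1:**
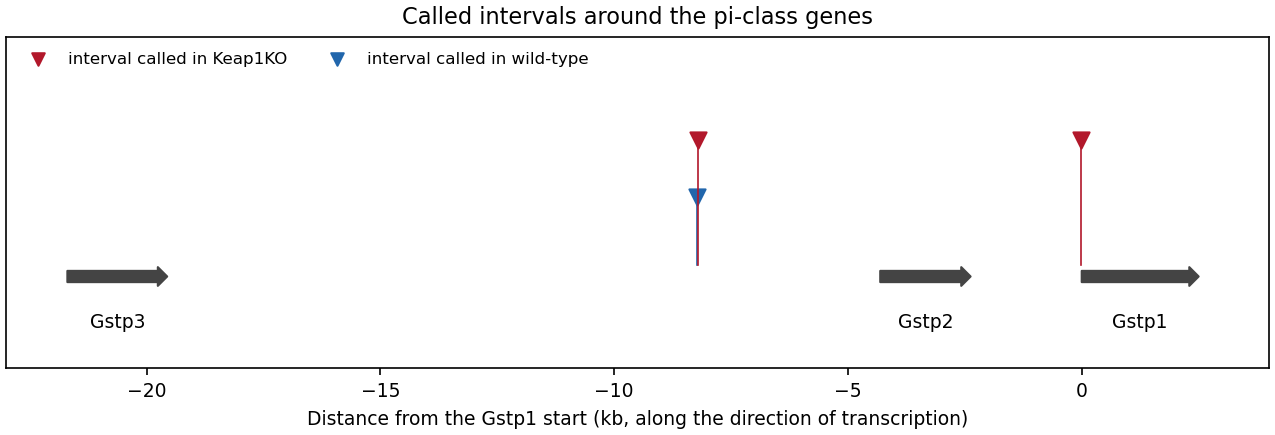
Positions of the called intervals around the pi-class genes, as distance in kb from the Gstp1 start along the direction of transcription. Arrows are gene bodies and triangles are called intervals, in red for Keap1KO and in blue for wild-type. The interval 8 bp upstream of Gstp1 was called in Keap1KO, and the region 3891 bp upstream of Gstp2 was called in Keap1KO and wild-type.

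Promoter sequences were taken from RefSeq (GRCm38.p6) and matched for 3 of the 4 genes, and for Gsta4 none is shown. They are printed because the Gsta3 interval and the first pi-class interval fall inside these promoters, and because Gstp2 gives the comparison with the start that has no interval. Each runs 5′ to 3′ on the gene's own strand. In Gsta3 (chr1:21240335-21240564, plus strand, 230 bases) the capitals mark a match to TGACNNNGC. In Gstp1 (chr19:4037913-4038162, minus strand, 250 bases) and Gstp2 (chr19:4042222-4042471, minus strand, 250 bases) they mark TGAGTCAGC.
Gsta3: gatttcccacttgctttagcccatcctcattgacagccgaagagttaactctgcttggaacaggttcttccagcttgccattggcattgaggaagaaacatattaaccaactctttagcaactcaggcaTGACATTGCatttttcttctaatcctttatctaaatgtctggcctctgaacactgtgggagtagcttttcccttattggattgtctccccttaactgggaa
Gstp1: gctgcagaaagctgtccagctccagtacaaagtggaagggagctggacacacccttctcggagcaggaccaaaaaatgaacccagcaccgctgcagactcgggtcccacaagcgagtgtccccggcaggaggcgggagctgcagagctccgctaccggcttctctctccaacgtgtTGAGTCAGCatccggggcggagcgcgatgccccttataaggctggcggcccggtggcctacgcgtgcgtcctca
Gstp2: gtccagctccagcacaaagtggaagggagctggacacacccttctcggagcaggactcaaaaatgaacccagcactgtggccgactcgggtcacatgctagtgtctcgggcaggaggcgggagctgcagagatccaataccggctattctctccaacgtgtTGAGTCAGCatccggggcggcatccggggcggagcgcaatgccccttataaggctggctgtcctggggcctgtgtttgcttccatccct

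Both strands of the promoters, 250 bases before to 50 bases after the start in the RefSeq promoter table, were searched for TGACNNNGC, for the looser TGANNNNGC, which includes it, and for TGAGTCAGC, which fits the looser motif and holds the AP-1 site TGAGTCA. The last was chosen after the sequences were seen. Gsta3 held the core motif once, as TGACATTGC (chr1:21240464-21240472), with its centre 52 bp from the listed interval position. Gstp1 and Gstp2 held no match to TGACNNNGC, and whether Nrf2 binds other sequences there was not tested. Both held TGAGTCAGC, 74 bases upstream of the start in Gstp1, with its centre 62 bp from the interval, and 89 bases upstream in Gstp2. Other matches to the looser motif in Gstp1 lay nearer the interval, TGAGGACGC at 3 bp and TGAATCCGC at 41 bp. Gsta3 also held a looser match, TGAATACGC, 155 bp from its interval. The upstream 250 bases of the 2 pi-class promoters were identical at 207 of 235 aligned bases (88.1%), and the longest identical run was 43 bases. The sources used here do not say how the alignment treated reads that fit both copies, and its part in the placing of these intervals was not tested. The start in the promoter table is the outermost start of the gene in Gstp1, Gstp2 and Gsta1, and lies 20 bp into the gene in Gsta3, 47 bp in Gsta2 and 158 bp in Gstp3. In these windows Gsta1, Gsta2 and Gstp3 held neither TGACNNNGC nor TGAGTCAGC. The looser motif was held by Gsta1, as TGATTTGGC, and by Gstp3, as TGAGTCTGC and TGAGCTTGC, but not by Gsta2. For Gsta3 the core motif began 121 bases upstream of the promoter table start at 21240585.

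Over all 32841 promoters of 300 bases in the RefSeq table, 12.4% held TGACNNNGC, 41.3% TGANNNNGC and 0.414% TGAGTCAGC. Among the 134 loci with a listed interval inside such a promoter, 38.1% held the core motif, as Gsta3 did, 59.7% the looser one and 3.73% TGAGTCAGC. Since TGAGTCAGC was chosen after the pi-class sequences were seen, its share includes Gstp1 by choice. The 5 loci with TGAGTCAGC were those of Gstp1, of Srxn1, which encodes sulfiredoxin, of Osgin1, of Zer1 and of Ufl1. Their heights in Keap1KO were 89 at the pi-class locus, 158 at Srxn1, 87 at Osgin1, 34 at Zer1 and 10 at Ufl1. The median over all loci was 18 in Keap1KO, and Ufl1 was below it. The pi-class value is a mean of 2 regions, at 156 and 22, and the table does not tell which of them lies at the Gstp1 start with the motif. The median Keap1KO height was 19 at the 51 loci with the core motif and 17.7 at the 83 without it. At 35 in Keap1KO, Gsta3 was 1 of 8 among those 51 loci with a height of at least 35. Of the 83 loci without the core motif, 7 reached that height, and 8.01% of all loci were higher than Gsta3.

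**Figure D2:**
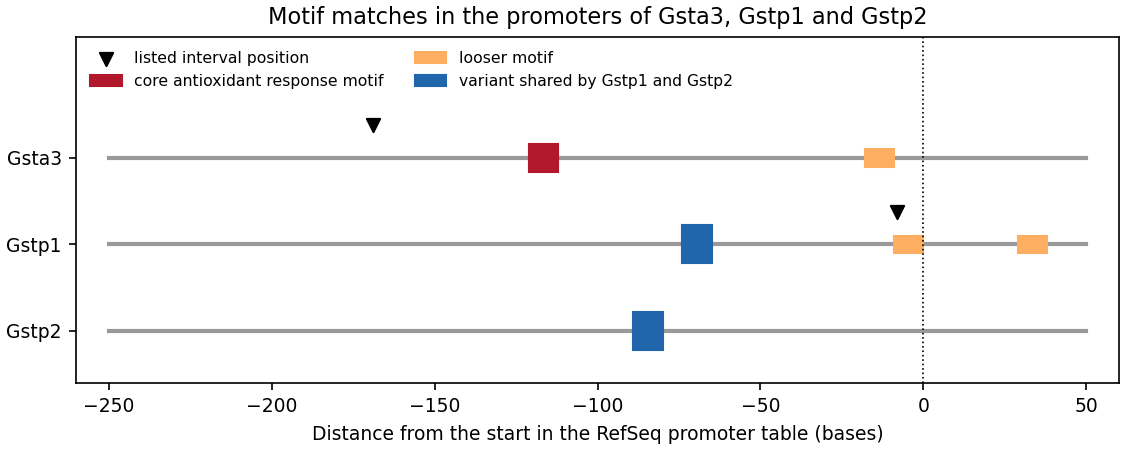
Motif matches on either strand in the promoters of Gsta3, Gstp1 and Gstp2, as distance in bases from the start in the RefSeq promoter table. Boxes are matches to the core antioxidant response motif (red), to the looser motif (orange) and to the variant in both pi-class promoters (blue), and triangles are listed interval positions. The variant lies 74 bases upstream of Gstp1 and 89 bases upstream of Gstp2, and an interval is listed at the Gstp1 start.

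As deposited, with no further scaling, peak heights at the 3 loci were many times higher in Keap1KO than in the other genotypes. All 3 loci were called in Keap1KO, which selects the heights there upwards. A height is the deposited signal averaged over the regions of a gene, with no stated unit. Gsta3 had a height of 35 in Keap1KO and 3 in Nrf2KO, against 6 in wild-type. Gsta4 had 67 in Keap1KO and 2 in Nrf2KO, against 8 in wild-type. The locus shared by Gstp1 and Gstp2 had 89 in Keap1KO and 4.5 in Nrf2KO, against 10.5 in wild-type, each a mean of 2 regions. The order over genotypes was the same at all 3 loci, with Keap1KO highest and Nrf2KO lowest, as at 52.8% of all loci. For scale, medians over all loci were 18 (Keap1KO), 4.33 (Nrf2KO) and 5 (wild-type).

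The 2 pi-class regions were of unequal height in Keap1KO. The table also gives the highest height of each gene, and for Gstp1 and Gstp2 this is 156, in Keap1KO. With a mean of 89, the other region had 22, and the taller was 7.09 times the lower. That deposited maximum equalled the highest solved height, within 0.01, in all 45 genes with several regions that could be solved singly. Which of the 2 regions, that at the Gstp1 start or that upstream of Gstp2, had 156 cannot be told apart from the table. In Nrf2KO and wild-type the heights are known as sums over both regions, 9 in Nrf2KO and 21 in wild-type. The taller region was therefore at least 15.7-fold higher in Keap1KO than in Nrf2KO and at least 7.14-fold higher than in wild-type, with 1 added to each height. For the lower region the fold over wild-type could lie anywhere from 1.05 to 23. A deposited maximum above 156 was listed for 3 genes, Txn1, Srxn1 and Scrt2, and Scrt2 shares its locus with Srxn1.

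**Figure D3:**
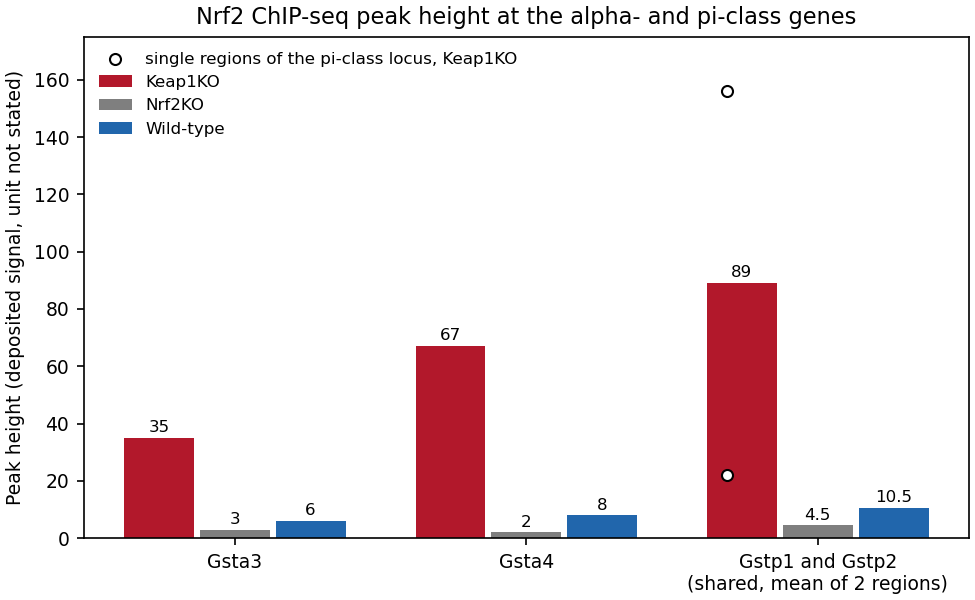
Peak height (deposited signal, unit not stated) in the Keap1KO, Nrf2KO and wild-type libraries at Gsta3, Gsta4 and the locus of Gstp1 and Gstp2, 1 library for each bar. Open circles mark the 2 single regions of the pi-class locus in Keap1KO, at 156 and 22, whose mean is the bar of 89. Keap1KO bars run from 35 to 89, Nrf2KO bars from 2 to 4.5 and wild-type bars from 6 to 10.5.

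Set against wild-type, Keap1KO was 5.14-fold higher at Gsta3 (log2 ratio 2.36), 7.56-fold higher at Gsta4 (2.92) and 7.83-fold higher at the pi-class locus (2.97). All ratios have 1 added to each height. The median log2 ratio over all loci was 1.74, with quartiles of 1.30 and 2.20, so the 3 loci lay above the upper quartile. In descending order of this ratio they stood at places 265 for Gsta3, 66 for Gsta4 and 60 for the pi-class locus of 1460. Keap1KO was at least 2-fold higher at all 3, a size passed by 88.0% of all loci, so that count does not mark these genes out. A Keap1KO call stood behind 1448 of the loci, which selects Keap1KO heights upwards. When each library was scaled to its median height over gene rows, the median ratio of all loci moved to 0.19. The ratios then were 0.78 at Gsta3, 1.30 at Gsta4 and 1.33 at the pi-class locus, so that Gsta3 no longer reached 2-fold.

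Against Nrf2KO, where the antibody has no target, Keap1KO was 9-fold higher at Gsta3 (log2 ratio 3.17), 22.7-fold at Gsta4 (4.50) and 16.4-fold at the pi-class locus (4.03). The median over all loci was 1.91, with an upper quartile of 2.54. With libraries scaled to their medians the 3 log2 ratios were 1.54, 2.92 and 2.33, and the median over all loci was 0.27. Gsta4 stood at place 11 of 1460, the pi-class locus at place 38 and Gsta3 at place 150. All 3 were at least 2-fold higher, as were 85.3% of all loci. The Nrf2KO heights of 2 and 3 at Gsta4 and Gsta3 make these folds depend on the amount added. With 5 added in place of 1 the log2 ratios were 2.32 at Gsta3, 3.36 at Gsta4 and 3.31 at the pi-class locus.

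Nrf2KO was lower than wild-type at all 3 loci, by smaller amounts. The ratio is given as wild-type over Nrf2KO, so a positive value is higher in wild-type. It was 1.75-fold at Gsta3 (log2 ratio 0.81), 3.00-fold at Gsta4 (1.58) and 2.09-fold at the pi-class locus (1.06), against a median log2 ratio of 0.19 over all loci and an upper quartile of 0.74. Wild-type was at least 2-fold higher at Gsta4 and the pi-class locus, 2 of 3, and at 18.8% of all loci. The heights compared here were 2 to 4.5 in Nrf2KO and 6 to 10.5 in wild-type, and no replicate shows how far such low heights vary. With 5 added to each height no member reached 2-fold, and Gsta4 gave 0.89. The pi-class locus was the single member locus called in wild-type, 1 of 3, against 3.77% of all loci. Among loci of 1 region, called wild-type heights began at 10, while uncalled loci reached 20, and Gsta3 and Gsta4 had 6 and 8.

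In the ratio of 2 loci within a library, a scaling of the whole library cancels, while an amount added to every height does not. Gsta4 was 1.91 times as high as Gsta3 in Keap1KO and 0.667 times in Nrf2KO, against 1.33 times in wild-type. The pi-class locus was 2.54 times as high as Gsta3 in Keap1KO and 1.5 times in Nrf2KO, against 1.75 times in wild-type. Both loci were thus furthest above Gsta3 in Keap1KO. The pi-class locus was 1.33 times as high as Gsta4 in Keap1KO and 2.25 times in Nrf2KO, against 1.31 times in wild-type. The Nrf2KO ratios rest on heights of 2 to 4.5 and the wild-type ratios on heights of 6 to 10.5, with nothing added. In the order of Keap1KO heights the pi-class locus stood at place 8 of 1460, Gsta4 at 20 and Gsta3 at 118. In Nrf2KO, by contrast, 78.7% of loci were higher than Gsta4 and 64.5% higher than Gsta3.

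**Figure D4:**
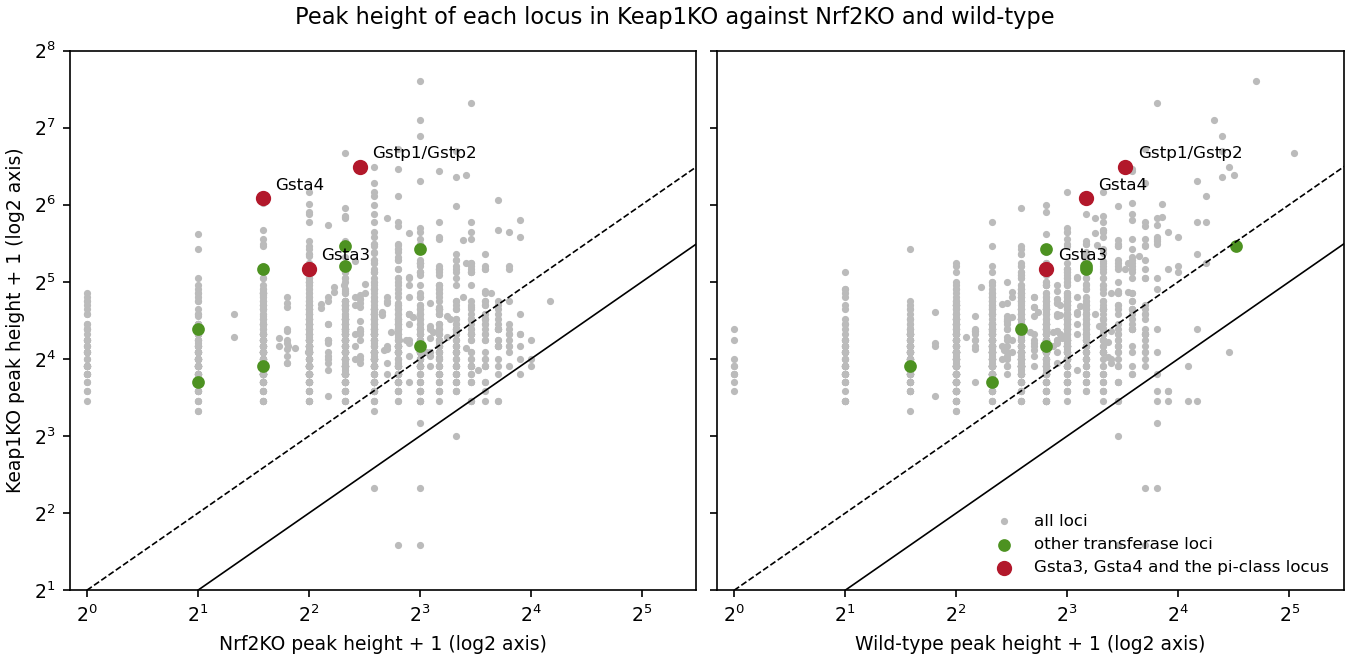
Peak height plus 1 of each of 1460 loci in Keap1KO (vertical) against Nrf2KO (left panel) and wild-type (right panel), on log2 axes. Red points are Gsta3, Gsta4 and the pi-class locus, green points the other transferase loci and grey points all loci. The solid line marks equal heights and the dashed line 2-fold, and all 3 red points lie above the dashed line in both panels.

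Loci near gene starts, where the members lie, had lower ratios over Nrf2KO than all loci together. Of all loci, 454 (31.1%) had an interval within 1 kb of a gene start. There the log2 ratios had medians of 1.29 (Keap1KO over Nrf2KO), 0.00 (wild-type over Nrf2KO) and 1.42 (Keap1KO over wild-type). Among these 454, Gsta4 stood at place 3, the pi-class locus at place 5 and Gsta3 at place 23 for Keap1KO over Nrf2KO. For wild-type over Nrf2KO their places were 10, 31 and 52 in the same order of loci. In 99 loci the closest interval lay at the start or up to 250 bp upstream, as at the members, and there the median for Keap1KO over Nrf2KO was 1.24. By Keap1KO height the pi-class locus was at place 2 of these 99, Gsta4 at 5 and Gsta3 at 11. The pi-class values include the region upstream of Gstp2, which is not near a start.

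The wider family was described from a list of 30 transferase genes in 9 classes, of which 27 are in the RefSeq table and 13 have a row, at 11 loci. By class these were 2 of 4 alpha genes in RefSeq, 2 of 3 pi, 5 of 7 mu, 0 of 4 theta, 1 of 2 omega, 1 of 1 zeta, 0 of 1 kappa, 2 of 4 microsomal and 0 of 1 sigma. The share of all RefSeq genes with a row was not counted, so these counts do not mark the family out. For 12 of the 13 genes Keap1KO reached 2-fold over wild-type, at 10 of 11 loci (88.0% of all loci), and with libraries scaled to their medians for 5 genes. Gstm1 was the exception, with 43 in Keap1KO and 4 in Nrf2KO, against 22 in wild-type (1.91-fold over wild-type). Over Nrf2KO it reached 2-fold at 11 of 11 loci (85.3% of all). Wild-type was at least 2-fold above Nrf2KO for 7 genes at 6 of 11 loci (18.8% of all), and without the members for 4 genes at 4 of 8 loci. With 5 added to each height, the count of genes for that comparison was 1. Shares of all loci past 2-fold were not counted for scaled libraries or with 5 added, so those counts stand without a background share.

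Among the 8 other transferase loci, Keap1KO heights ran from 12 at Gstm2 to 43 at Gstm1, all below the 67 of Gsta4. Gstm1, the locus of Gstm6 and Gstm7, and Mgst1 were above the 35 of Gsta3. Gstm3 had 35 in Keap1KO and 2 in Nrf2KO, against 8 in wild-type, the same Keap1KO height as at Gsta3. The locus shared by Gstm6 and Gstm7 had 42 in Keap1KO and 7 in Nrf2KO, against 6 in wild-type. The microsomal enzyme genes Mgst1 and Mgst2 had 36 and 20 in Keap1KO and 4 and 1 in Nrf2KO, against 8 and 5 in wild-type. Gstz1, which encodes an isomerase of tyrosine breakdown, had 17 in Keap1KO and 7 in Nrf2KO, against 6 in wild-type. Gsto2 had 14 in Keap1KO and 2 in Nrf2KO, against 2 in wild-type. At the Gstm6 and Gstm7 locus, at Gstz1 and at Gsto2, wild-type was thus at or below Nrf2KO. At the other 5 of these 8 loci wild-type was above Nrf2KO, as at the 3 alpha- and pi-class loci. Wild-type against Nrf2KO therefore did not set the members apart, with log2 medians of 1.06 (members) and 1.08 (other 8). The median log2 ratio of Keap1KO over wild-type was 2.92 at the 3 member loci and 1.90 at the other 8, against 1.74 over all. The sets overlapped, with 2.62 at the locus of Gstm6 and Gstm7 and 2.36 at Gsta3.

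**Figure D5:**
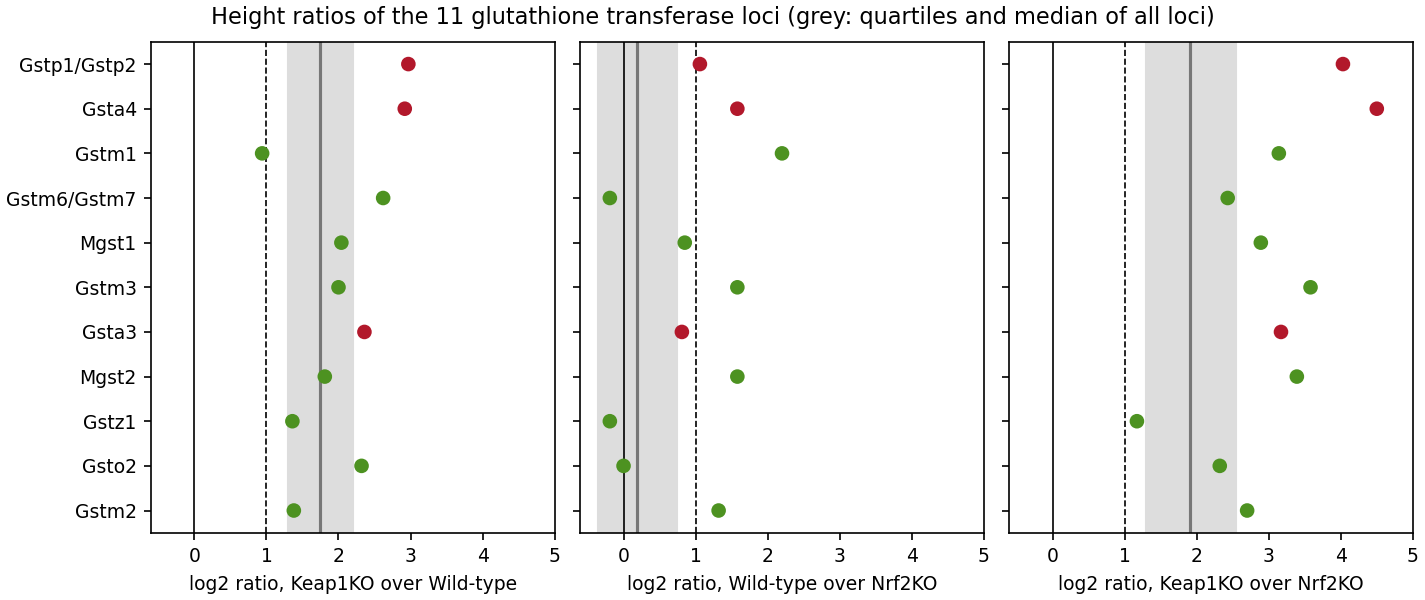
Log2 height ratios, with 1 added to each height, of the 11 transferase loci in 3 comparisons, sorted by Keap1KO height. Red points are the alpha- and pi-class loci and green points the other classes, the grey band and line are the quartiles and median of all loci, and the dashed line is 2-fold. The pi-class locus and Gsta4 are at 2.97 and 2.92 for Keap1KO over wild-type, and Gstm1 at 0.94 is left of the dashed line.

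Conjugates made by these enzymes leave the cell through transporters of the Abcc family and are trimmed to mercapturates. Of 17 genes listed for these steps, 3 had a row, all of them transporters, again with no share over all RefSeq genes counted. Abcc1 had 32 in Keap1KO and 3 in Nrf2KO, against 9 in wild-type. Abcc3 had 21 in Keap1KO and 1 in Nrf2KO, against 3 in wild-type. Abcc5 had 25 in Keap1KO and 2 in Nrf2KO, against 4 in wild-type. All 3 were lower in Keap1KO than Gsta3, and all 3 had the order of genotypes seen at the members and at 52.8% of all loci.

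The loci most alike in pattern were sought by Euclidean distance over the log2 heights (plus 1) of the 3 libraries. For Gsta3 these were Ube2o (distance 0.04), the locus of Mir143 and Mir145 (0.04) and that of Cxcl5 and Ppbp (0.08). Heights at these were 33 or 34 in Keap1KO and 3 in Nrf2KO, against 6 in wild-type. For Gsta4 the closest were Trim56 (0.42), 1700028I16Rik (0.44) and Cat, the catalase gene (0.45). Cat had 71 in Keap1KO and 3 in Nrf2KO, against 9 in wild-type. For the pi-class locus they were Txnrd1, thioredoxin reductase (0.30), Osgin1 (0.35) and Nqo1, a quinone reductase (0.46), which share their loci with Eid3, Necab2 and Nob1. Nqo1 had 105 in Keap1KO and 6 in Nrf2KO, against 12 in wild-type. The measure rests on 3 libraries and says nothing of shared control.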

How the data were processed

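Nrf2 ChIP-seq was analysed in esophagus of Keap1KO, Nrf2KO and wild-type mice, 1 library each. The submitters' processing notes name BWA, MACS2 2.1.0 and mm10, while parameters, depth and scaling were not given in the sources used here. Per the file headers, the deposited signal is an average peak height per gene over its active regions (intervals merged between libraries), with flags for called intervals, numbers of intervals and regions, and the highest height of each gene. No column was left unused for want of a sample.

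With Python 3.11.15, pandas 2.3.3 and numpy 2.4.6, 1727 intervals were merged to the 1684 stated regions (largest merge 704 bp) and heights solved by least squares (largest residual 0.00186; checked on simulated data). Regions listed under exactly the same genes form 1 locus, giving 1460 loci. Ratios use log2(height + 1), and 2-fold is a rule of size. Every locus was called in Keap1KO or wild-type, so heights there are selected by the calls. Interval sequence was read from RefSeq promoters, since no genome was used, and the pi-class promoters were aligned with Biopython 1.88. The text names the 4 genes, all listed family genes with a row, genes that share a member's interval and the 3 loci closest in pattern to each. Ly96, Fbxo9, Ick, Scrt2, Srxn1, Txn1, Zer1 and Ufl1 fall outside that rule and were named after their values were seen. Gsta1, Gsta2 and Gstp3 also fall outside it, as listed family genes without a row. The members and lists were chosen with earlier results of these data known.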

Additional observations from a re-analysis of the deposited data

How the results depend on the processing

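No paired analysis was possible because there were only single libraries for the genotypes, and replicates could not be left out. No value of the 58 under alternatives changed sign. A value counts as moved when it shifted by more than 1.5 times, judged for log2 ratios on the fold and not on the log2 value. Scaling each library to its median height over gene rows moved Keap1KO over wild-type to 0.78 at Gsta3, 1.30 at Gsta4 and 1.33 at the pi-class locus, with 5 transferase genes past 2-fold in place of 12. It moved Keap1KO over Nrf2KO to 1.54, 2.92 and 2.33 at the same loci. An addition of 5 moved Keap1KO over Nrf2KO to 2.32, 3.36 and 3.31 and wild-type over Nrf2KO at Gsta4 to 0.89, with 1 transferase gene past 2-fold in place of 7. Without the member loci, a setting chosen after seeing the data, that count was 4. Shares of all loci past 2-fold were not counted for scaled libraries or with 5 added. Larger additions shrink ratios by construction, and for scaling the cause was not tested. The share of promoters with a motif was 59.7% for TGANNNNGC and 3.73% for TGAGTCAGC, against 38.1%. An addition of 0.5, the mean over all regions (already the value in use) and the taller pi-class region moved no ratio so far. The wider motif window was not run, since promoters of 300 bases were used. Unknown depth limits every ratio between libraries.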
